A study of Mus musculus with 4 samples.

Results

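The 40 genes described here are the transcription factor NRF2 (Nfe2l2) with its inhibitor Keap1, the genes of glutathione synthesis, the glutathione transferases, and the redox and iron enzymes that are commonly placed under NRF2 or glutathione. They were taken by symbol from the deposited table, 1 row per gene ID, and all 40 of the 40 listed symbols were found among its 46603 gene IDs. The study sequenced polyadenylated RNA of mouse embryonic stem cells of 2 genotypes, wild type (Gsk3a+/+;Gsk3b+/+) and a double knockout (Gsk3a-/-;Gsk3b-/-), with 2 biological replicates of each. The double knockout lacks both forms of glycogen synthase kinase 3. All cells were grown in serum medium with LIF on gelatin and irradiated mouse embryonic fibroblasts, and RNA was extracted with TRIzol and made into stranded TruSeq libraries. The labels give embryonic day 16, while the design text gives another designation. The table compares a group A with a group B and does not name their genotypes, so every difference is given as group B over group A without a genotype. The alleles, and whether the replicates were separate clones or cultures, are not described in the labels, and p-values measure the spread between these libraries only.

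NRF2 is a basic leucine zipper factor that is held in the cytoplasm and sent to degradation by KEAP1, an adaptor of a cullin ubiquitin ligase. Oxidants and electrophiles modify KEAP1, and NRF2 then enters the nucleus, pairs with a small MAF protein and binds the antioxidant response element. GSK3 is known to phosphorylate NRF2 and so to mark it for a second ubiquitin ligase, that of beta-TrCP. The genes under NRF2 make glutathione, couple it to electrophiles, and reduce peroxides, quinones and oxidized thiols. NRF2 is controlled largely as a protein, and RNA levels do not measure its activity.

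The core of the antioxidant response element was looked for in the RefSeq promoter windows of the members (build GRCm38.p6, 250 bases before to 50 after a start). Of the 40 members, 34 had a window, 44 windows in all, and Gclc, Gsr, Gsta4, Gstt2, Hmox1 and Prdx6 had none. Searched on both strands, TGACNNNGC was in 9 of the 44 windows (20.5%) and in 12.4% of all 32851 windows. The variant TGAGNNNGC was in 7 of 44 (15.9%) and in 17.6% of all windows. The AP-1 motif TGANTCA, which can overlap either form, was in 5 of 44 (11.4%) and in 7.81% of all windows. A match is a string of letters and not a shown binding site. The 250 bases upstream of the RefSeq start of Gstm5 are printed because this gene had the smallest adjusted p of the members, with matches to the 3 motifs in capitals. TGACNNNGC begins at position -42, TGANTCA at -176 and the reverse complement of TGAGNNNGC at -196, counted with the RefSeq start at 0. The gene positions given further below are from GENCODE M21, and its start of Gstm5, 107895821, lies inside the printed stretch.
Gstm5 (chr3:107895604-107895853, plus strand): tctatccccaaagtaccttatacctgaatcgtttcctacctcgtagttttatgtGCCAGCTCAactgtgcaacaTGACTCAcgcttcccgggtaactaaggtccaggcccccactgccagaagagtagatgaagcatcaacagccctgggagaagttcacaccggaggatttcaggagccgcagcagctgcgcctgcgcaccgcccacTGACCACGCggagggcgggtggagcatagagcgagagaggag

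The next stretches show matches in the promoter of the regulator itself and of members of each role, in capitals. Those of Nfe2l2, Gclm, Prdx1, Txnrd1 and Gsta3 are to TGACNNNGC and those of Srxn1 and Gstp1 to the variant TGAGNNNGC. In Prdx1, Srxn1 and Gstp1 the match overlaps TGANTCA. Counted from the RefSeq start, the match begins at -240 in Nfe2l2, -134 in Gclm, -133 in Prdx1, -92 in Txnrd1, -45 in Srxn1, -74 in Gstp1 and -121 in Gsta3. By the GENCODE M21 positions, the Gstp1 match (4037978 to 4037986) spans the gene start at 4037985. The Txnrd1 match lies inside the gene, which starts at 82833951. Sequences are given on the strand of the gene, so a match on the other strand reads as the reverse complement.
Nfe2l2 (chr2:75704879-75704913, minus strand): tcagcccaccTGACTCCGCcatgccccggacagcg
Gclm (chr3:122245407-122245447, plus strand): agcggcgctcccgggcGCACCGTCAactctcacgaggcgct
Prdx1 (chr4:116685450-116685490, plus strand): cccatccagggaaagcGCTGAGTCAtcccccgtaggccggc
Txnrd1 (chr10:82859098-82859138, plus strand): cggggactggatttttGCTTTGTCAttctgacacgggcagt
Srxn1 (chr2:152105463-152105503, plus strand): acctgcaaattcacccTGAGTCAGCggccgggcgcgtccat
Gstp1 (chr19:4037962-4038002, minus strand): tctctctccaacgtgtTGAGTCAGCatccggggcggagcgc
Gsta3 (chr1:21240448-21240488, plus strand): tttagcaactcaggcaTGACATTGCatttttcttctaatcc

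Most NRF2 and glutathione genes did not differ past the threshold between the groups. The transferases Gstm5 and Gsto1 and the extracellular peroxidase Gpx3 were higher in group B, and the transferase Gsta4 was lower. By the authors' deposited table, of 40 members 3 passed an adjusted p of 0.05 upward, against 1.54% of all 30237 genes with a count, and 1 of 40 downward, against 1.92% (3.46% in either direction). The other 36 did not pass. A mean normalized count of 10 or more, which every called gene has, was reached by 39 of the 40 members. Of genes at that mean 5.12% passed, 2.28% upward and 2.84% downward. At an adjusted p of 0.1 7 members passed (4.52% of all genes with a count), and at 0.01 2 did (2.23%). The median log2 fold change by the authors' deposited table was 0.02 over the members, with 20 above 0 and 20 below, and 0.01 over all genes with a count. The median size without sign was 0.27 for the members and 0.25 for genes at a mean of 10 or more. A value for each library was recovered from the group means, and the names A1, A2, B1 and B2 used for them have no link to the replicate numbers of the labels. Group B lay wholly above group A for 13 of the 39 members and wholly below for 14, and 12 overlapped. Of genes at that mean the groups did not overlap for 52.5%, 26.4% with B above and 26% with B below. With limma on the recovered counts 3 of the 39 members passed, Gstm5 and Gpx3 upward and Gsta4 downward, against 2.01% of 20465 genes (0.977% upward and 1.03% downward). The same 3 passed with a pseudocount of 10 (2.45% of genes), without the filter on low values (1.36%) and when scaled by library total (2.19%). Without A1, and also without A2, limma called none of all the genes it tested. Without B1 it called 4 of the members (4.87% of genes) and without B2 7 (5.43%).

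**Figure D1:**
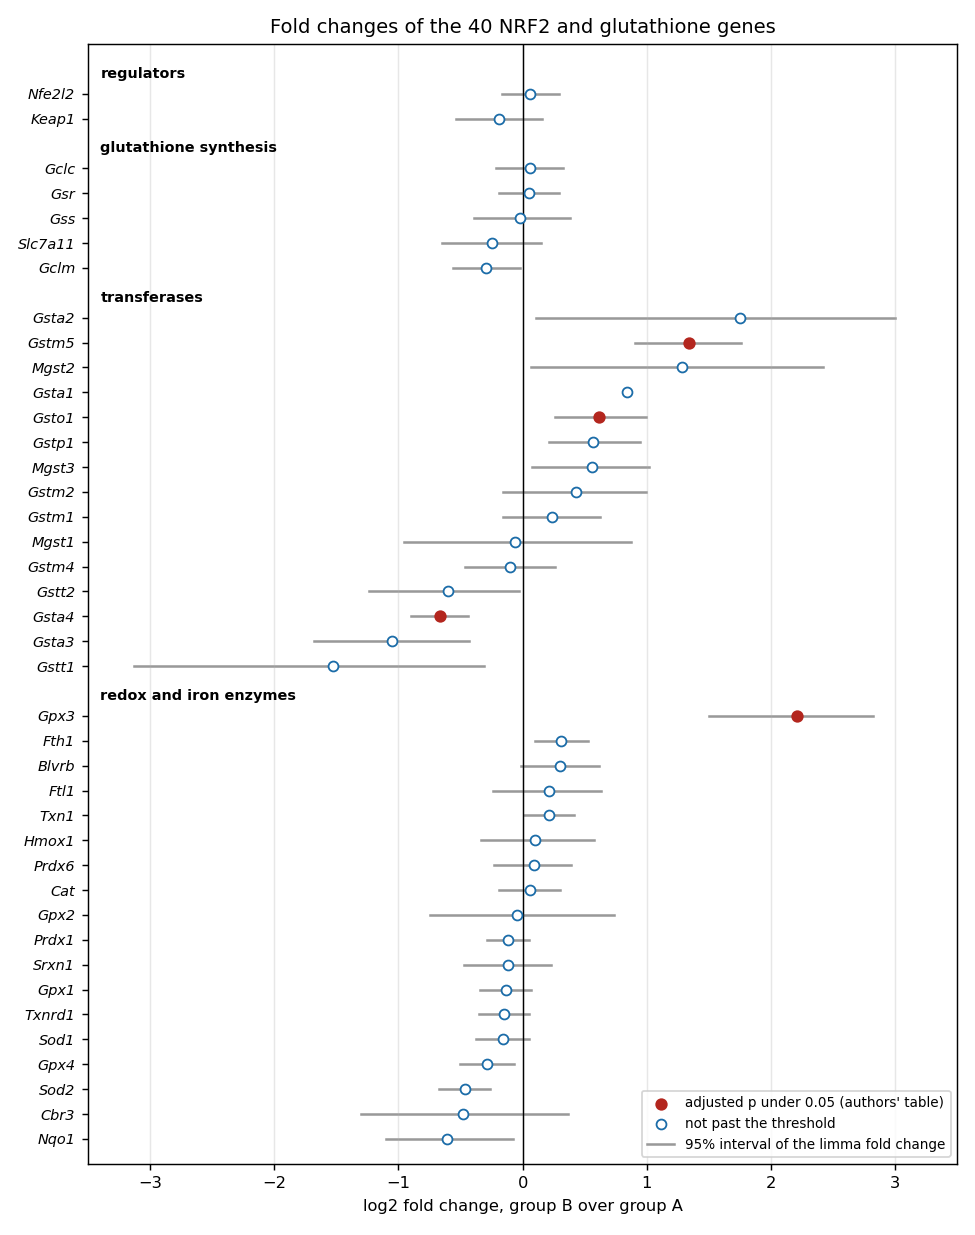
Log2 fold change of group B over group A for the 40 genes, by role and ordered within each role. Points are values of the authors' deposited table, filled where the adjusted p is under 0.05, and grey lines are 95% intervals of the limma fold change (none for Gsta1, whose mean is under 10). The 4 filled points are Gstm5, Gsto1, Gsta4 and Gpx3, and the points of the regulators and of glutathione synthesis lie between -0.29 and 0.06.

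Library totals ranged from 112655210 to 146326307 counts. Stem cell markers were abundant in all libraries, with Pou5f1 between 93404 and 125786 normalized counts and the sum of 10 such markers at 789398 and 849237 in A1 and A2 and at 700019 and 712267 in B1 and B2. The sum of 20 feeder fibroblast markers was 199115 and 96625 in group A and 63240 and 286822 in group B. It thus differed more within the groups than between them. Of these 20 the authors' test called 1 higher, Fbln1 (adjusted p 0.00463), against 1.54% of all genes with a count. The sum of 18 endoderm markers was 97872 and 77680 in group A and 355529 and 174128 in group B. It is mostly Col4a1, Lama1, Lamb1 and Col4a2, with means over all libraries of 57125, 41141, 30199 and 27707. Of 18 macrophage markers 3 were called higher (Ptprc, Lyz2 and Spi1) and 1 lower (Mrc1) by the authors' test. Of all genes with a count 1.54% were called higher and 1.92% lower. The macrophage markers had a median log2 fold change of 1.45. Their sum, 28391 and 29916 in group A and 22275 and 29836 in group B, is mostly Laptm5, which had 23927 and 25863 against 17665 and 24220. No listed marker was at 0 in every library. Of the targeted genes, Gsk3a was at 6353 and 7104 normalized counts in group A and at 1697 and 1347 in group B, and Gsk3b at 5438 and 6285 against 5051 and 5002. In bulk RNA, fewer cells of a type and less RNA per cell cannot be told apart. All 2601 genes of the X chromosome are listed at 0, among them Prdx4, Pir and G6pdx of this pathway.

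The regulators were nearly level. Nfe2l2 (ENSMUSG00000015839, chromosome 2, 75675513 to 75704641, mm10), which encodes NRF2, had normalized counts of 9312 and 9419 in group A (A1, then A2) and 9608 and 9923 in group B (B1, then B2). The B values were above the A values, by little. Its log2 fold change by the authors' deposited table was 0.06 (adjusted p 1), and the 95% interval of the limma fold change ran from -0.17 to 0.29. Keap1 (ENSMUSG00000003308, chromosome 9, 21229730 to 21239361) had 2024, 2141, 1946 and 1710 in the same order, so both B libraries were lower. Its log2 fold change by the authors' deposited table was -0.19 (adjusted p 1), with a limma interval from -0.54 to 0.16. A change of either transcript by 2-fold in either direction, 1 on the log2 scale, lies outside these intervals. Neither regulator had an unadjusted p under 0.05 in the authors' test or in limma.

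The genes that make and recycle glutathione did not pass either. Glutamate-cysteine ligase, the rate-limiting step, is built from a catalytic subunit, Gclc, and a modifier subunit, Gclm. Gclc (ENSMUSG00000032350, chromosome 9, 77754535 to 77794485) had 4326 and 4167 normalized counts in group A and 4528 and 4300 in group B, with overlapping groups. Gclm (ENSMUSG00000028124, chromosome 3, 122245557 to 122270732) had 6979 and 6328 in group A and 5519 and 5338 in group B. The subunits therefore stood differently, the modifier lower in both B libraries and the catalytic one not separated. For Gclm the log2 fold change by the authors' deposited table was -0.29 (adjusted p 0.720), and the limma interval, -0.56 to -0.02, left out 0 without passing the threshold after adjustment (limma adjusted p 0.213). For Gclc the log2 fold change by the authors' deposited table was 0.06, with a limma interval from -0.22 to 0.33. The difference between the 2 subunits was not tested. Gsr (ENSMUSG00000031584, chromosome 8, 33652523 to 33698163), the reductase that restores glutathione, had 7809 and 8030 in group A and 8424 and 8017 in group B. The groups overlapped, and its log2 fold change by the authors' deposited table was 0.05. Gss, which adds glycine in the last step of synthesis, overlapped between groups, with a log2 fold change of -0.02 by the authors' deposited table. Slc7a11, the cystine importer that feeds the pathway, was at 1767 and 1580 in group A and 1541 and 1285 in group B. Its log2 fold change by the authors' deposited table was -0.24 (adjusted p 0.997), with a limma interval from -0.65 to 0.15. With the authors' test 0 of the 5 genes had an unadjusted p under 0.05 and with limma 1, Gclm.

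**Figure D2:**
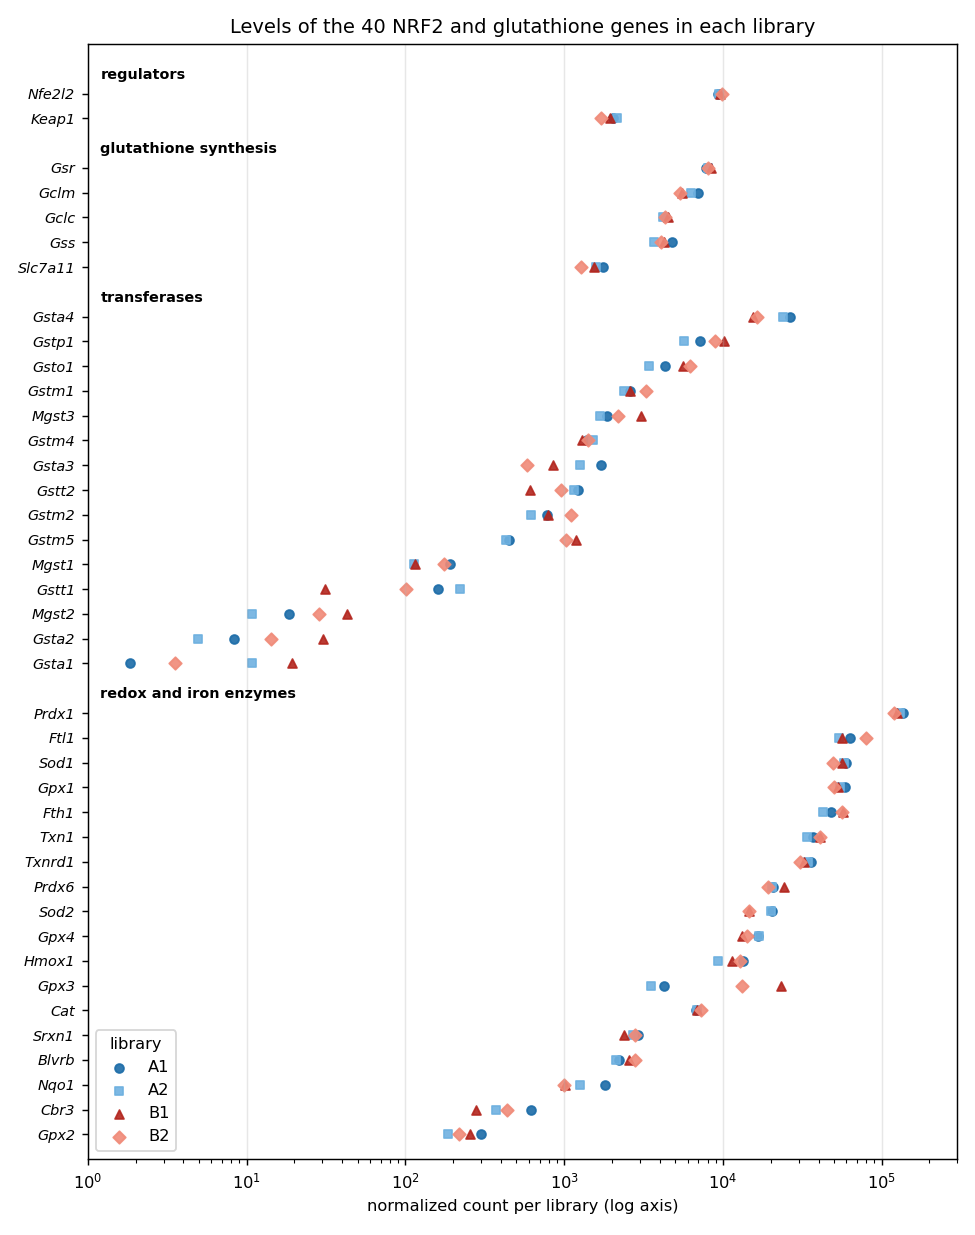
Normalized count of each of the 40 genes in libraries A1, A2, B1 and B2, on a log axis, by role and ordered by mean. The 4 symbols lie close together for most genes. The groups are apart for Gsta4, Gstm5, Gsto1 and Gpx3, and also for members that did not pass, such as Gsta3, Gstp1 and Sod2. Of 39 members at a mean of 10 or more, B lies wholly above A for 13 and wholly below for 14. The shares of all genes at that mean are 26.4% and 26%. The low transferases Gsta1, Gsta2, Mgst2 and Gstt1 spread widely within groups.

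The glutathione transferases, which couple glutathione to reactive compounds, held 3 of the 4 members past the threshold. Their 15 log2 fold changes by the authors' deposited table ran from -1.52 to 1.75, with a median of 0.43, and 2 of 15 passed upward and 1 downward, against 1.54% and 1.92% of all genes with a count (5.12% in either direction at a mean of 10 or more). The median size without sign was 0.62, against 0.06 in the 5 genes of glutathione synthesis and 0.18 in the 18 redox and iron enzymes. The members differ in abundance, and low counts alone widen such values, so the sizes are a description.

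Gstm5 (ENSMUSG00000004032, chromosome 3, 107895821 to 107898686), a mu-class transferase, had 448 and 430 normalized counts in A1 and A2 and 1183 and 1033 in B1 and B2. Both B libraries were more than 2-fold above both A libraries, and the libraries within each group were close. It rose by 1.34 on the log2 scale in the authors' deposited table (adjusted p 3.56e-07), and limma gave 1.33 (SE 0.17, adjusted p 0.0320). Its limma adjusted p was 0.196 without A1 and 0.319 without A2, where the fitted values were 1.36 and 1.30. Gsto1 (ENSMUSG00000025068, chromosome 19, 47854970 to 47864790), an omega-class enzyme that reduces dehydroascorbate and protein-glutathione adducts, had 4286 and 3415 in group A and 5607 and 6192 in group B. The groups were apart, and A1 and A2 differed from each other by 0.33 on the log2 scale. It rose by 0.62 on the log2 scale in the authors' deposited table (adjusted p 0.0385). Limma gave 0.62 (SE 0.15) with an adjusted p of 0.0961, so this call was made by the authors' test alone.

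Gsta4 (ENSMUSG00000032348, chromosome 9, 78182774 to 78209349), an alpha-class transferase with high activity toward 4-hydroxynonenal, a product of lipid peroxidation, was the most abundant transferase of the list. It had 26512 and 24063 normalized counts in A1 and A2 and 15536 and 16307 in B1 and B2. The lower A library was well above the higher B library. It fell by 0.67 on the log2 scale in the authors' deposited table (adjusted p 0.00894), and limma gave -0.67 (SE 0.09, adjusted p 0.0392). Its limma adjusted p was 0.244 without A1 and 0.312 without A2, where the fitted values were -0.60 and -0.74. Of the 10 stem cell markers 8 had lower values in both B libraries, against 26% of all genes at a mean of 10 or more. The authors' test called 2 of them lower, Utf1 and Fgf4, against 2.84% of genes at that mean. The part of these 10 markers in the Gsta4 result was not tested.

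Several other transferases came near the threshold without passing it. Gstp1 (ENSMUSG00000060803, chromosome 19, 4035407 to 4037985), the pi-class enzyme, had 7180 and 5655 normalized counts in group A and 10096 and 8927 in group B. The authors' deposited table gave it a log2 fold change of 0.57 (adjusted p 0.0502), and the limma adjusted p was 0.112. Its neighbour Gstp2 is a near-identical copy among which reads may be split, and it had a log2 fold change of 0.58 by the authors' deposited table (adjusted p 0.0690). Gsta3, another alpha-class member, had 1711 and 1261 in group A and 852 and 584 in group B, with a log2 fold change of -1.05 by the authors' deposited table (adjusted p 0.0834). With all libraries its limma adjusted p was 0.0969. Its limma log2 fold change was -1.06 with all libraries, -1.33 without B1 and -0.79 without B2. Of the 4 alpha-class members, Gsta3 and Gsta4 had lower values in both B libraries, Gsta2 had higher values in both, and Gsta1 overlapped. Gstt1, a theta-class enzyme, had 159 and 220 in group A and 31.2 and 100 in group B. Its B libraries differed from each other by 1.69 on the log2 scale, and the log2 fold change by the authors' deposited table was -1.52 (adjusted p 0.0749). Limma gave Gstt1 -1.72 with all libraries (adjusted p 0.174), -0.89 without B1 (adjusted p 0.184) and -2.55 without B2 (adjusted p 0.0188). With 1 B library left, it is assumed to vary like the A libraries. Its neighbour Gstt2 had a log2 fold change of -0.60 by the authors' deposited table (adjusted p 0.220).

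The least abundant transferases cannot be read as changed. Gsta1 had 2, 11, 21 and 3 reads in A1, A2, B1 and B2, the only member with a mean normalized count under 10, and Gsta2, its close copy, had 9, 5, 33 and 12. Their log2 fold changes by the authors' deposited table were 0.84 and 1.75, with adjusted p values of 1 and 0.613. Mgst2, a membrane-bound transferase, had 20, 11, 47 and 24 reads. The other membrane-bound members are far more abundant in the case of Mgst3, at 1860, 1673, 3025 and 2187 normalized counts, and low for Mgst1, at 190, 113, 116 and 175. Mgst3 was above in both B libraries (log2 fold change of 0.56 by the authors' deposited table, adjusted p 0.419), while Mgst1 overlapped.

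The mu-class genes form one cluster on chromosome 3, and neighbours in it moved in opposite directions. Its 7 genes Gstm1 to Gstm7 span 149 kb in GENCODE M21, and Gstm3, Gstm6 and Gstm7 were taken from the list of other transferases. Gstm5, at one end, rose as given above. Gstm7, whose start lies 36.0 kb from that of Gstm5, had 263 and 260 normalized counts in group A and 84.3 and 87.5 in group B, and it fell by 1.61 on the log2 scale in the authors' deposited table (adjusted p 0.000139). Limma gave Gstm7 a log2 fold change of -1.60 (SE 0.24, adjusted p 0.0423). Gstm3, 73.5 kb from Gstm5, had 97.6 and 75.1 in group A and 185 and 255 in group B, and it rose by 1.35 on the log2 scale in the authors' deposited table (adjusted p 0.0108; limma adjusted p 0.0859). Between Gstm7 and Gstm3 lies Gstm6, with a log2 fold change of 0.40 by the authors' deposited table (adjusted p 0.853). The most abundant gene of the cluster, Gstm1, had 2616 and 2378 in group A and 2614 and 3282 in group B, with overlapping groups. Log2 fold changes by the authors' deposited table were 0.24 for Gstm1, 0.43 for Gstm2 and -0.10 for Gstm4, none past the threshold. The genes of this cluster are similar in sequence, and the treatment of shared reads in counting was not stated. Of the 7 genes, 5 were higher in A1 than A2 and in B2 than B1, against 21.3% of all genes at a mean of 10 or more. This is the order of the feeder markers, though in Gstm7 by very little. The part of the feeders in these values was not tested.

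**Figure D3:**
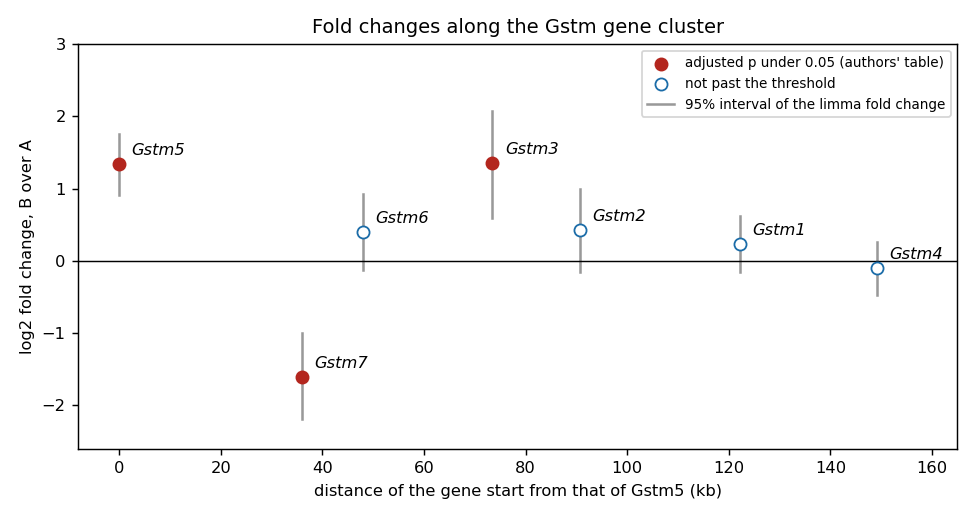
Log2 fold change of group B over group A for the 7 Gstm genes against the distance of each gene's start from that of Gstm5, in kb. Points are values of the authors' deposited table, filled where the adjusted p is under 0.05, and lines are 95% intervals of the limma fold change. Gstm5 and Gstm3 lie at 1.34 and 1.35, and Gstm7, between them, lies at -1.61.

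Among the redox and iron enzymes only Gpx3 passed, 1 of 18, close to the 5.12% of all genes at a mean of 10 or more. Gpx3 (ENSMUSG00000018339, chromosome 11, 54902453 to 54910377), a secreted glutathione peroxidase that is also held on basement membranes, had 4272 and 3545 normalized counts in A1 and A2 and 23049 and 13147 in B1 and B2. Both B libraries stood far above both A libraries, and B1 was well above B2. It rose by 2.21 on the log2 scale in the authors' deposited table (adjusted p 0.0353), and limma gave 2.16 (SE 0.27, adjusted p 0.0312). Limma gave 2.30 without A1 (adjusted p 0.180), 2.03 without A2 (adjusted p 0.312), 1.76 without B1 (adjusted p 0.0102) and 2.57 without B2 (adjusted p 0.00339). Many endoderm markers had higher values in the same libraries, though by the authors' test 1 of 18 passed, Foxa1, against 3.46% of all genes with a count. With limma 4 passed upward, against 0.977% of the genes it tested. Of 17 endoderm markers with a mean of at least 10, 11 lay wholly higher in group B, against 26.4% of all genes at that mean, 1 lay wholly lower and 5 overlapped, and the median log2 fold change of all 18 was 1.66 by the authors' deposited table. Their summed level, given above, was also highest in B1 and next in B2, and it is mostly Col4a1, Lama1, Lamb1 and Col4a2. Gata6, Lama1 and Ttr are named after their values were seen. Gata6, a transcription factor of primitive endoderm, had 744 and 535 in group A and 8215 and 3503 in group B (adjusted p 0.117 in the authors' deposited table), and the laminin chain gene Lama1 had 18645 and 16426 against 82287 and 47204 (adjusted p 0.0724). Ttr, a marker of visceral endoderm, was lower in both B libraries, with 26.7 and 12.9 against 3.67 and 3.55 (adjusted p 0.429), and Afp was at or near 0 throughout. Of 17 macrophage markers at a mean of 10 or more, 13 were also higher in both B libraries, against 26.4% of all genes, with the 3 higher calls and 1 lower call given above. The part of such cells in the Gpx3 result was not tested. The other glutathione peroxidases of the list did not show this pattern. The cytosolic Gpx1 had 59135, 54487, 53203 and 50063 normalized counts, and Gpx4, which reduces lipid peroxides in membranes, had 16622, 16810, 13276 and 14142. Their log2 fold changes by the authors' deposited table were -0.14 and -0.29 (adjusted p 1 and 0.703). Gpx2 was low in all libraries (186 to 298).

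**Figure D4:**
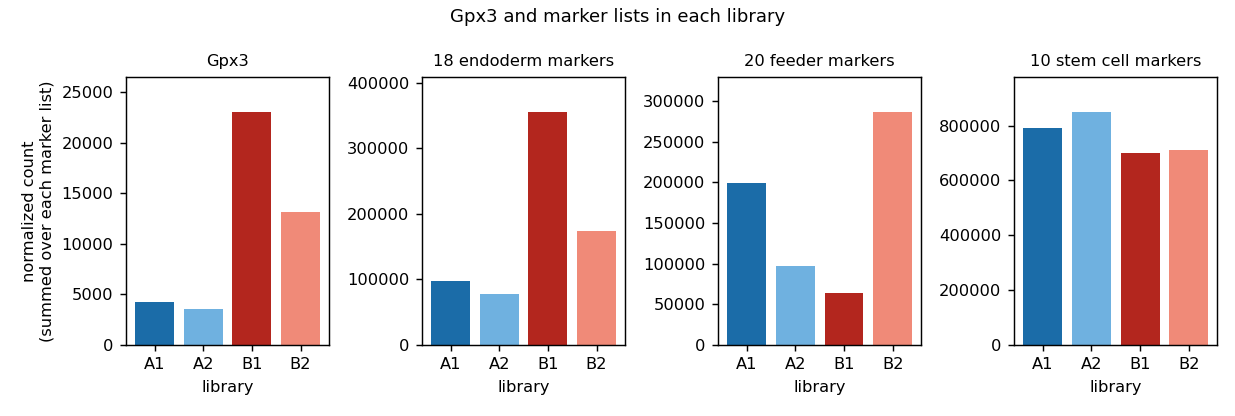
Normalized counts of Gpx3 and of the summed endoderm, feeder fibroblast and embryonic stem cell markers in each library; bars start at 0. Gpx3 and the endoderm sum are highest in B1 and next in B2, whereas the feeder sum is highest in B2 and lowest in B1. The endoderm sum is mostly Col4a1, Lama1, Lamb1 and Col4a2.

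The abundant enzymes of peroxide, superoxide and iron handling were close between the groups. Prdx1 (ENSMUSG00000028691, chromosome 4, 116685544 to 116700822), a peroxiredoxin, had 136068 and 129666 normalized counts in group A and 125274 and 119343 in group B. Both B libraries were slightly lower, and the log2 fold change by the authors' deposited table was -0.12 (adjusted p 1), with a limma interval from -0.29 to 0.05. Ftl1, the ferritin light chain (ENSMUSG00000050708, chromosome 7, 45457944 to 45459884), had 63129 and 53521 in group A and 55904 and 79150 in group B. B1 lay between the A libraries and B2 above both, and the log2 fold change of Ftl1 by the authors' deposited table was 0.21 (adjusted p 1). Sod1 (ENSMUSG00000022982, chromosome 16, 90220754 to 90226329), the cytosolic superoxide dismutase, had 59588 and 58184 in group A and 55828 and 49481 in group B. Its log2 fold change by the authors' deposited table was -0.16 (adjusted p 1). Ferritin, thioredoxin and peroxiredoxin genes have processed copies elsewhere in the genome, and the handling of reads shared with them was not stated either.

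The classic NRF2 reporters did not pass. Nqo1 (ENSMUSG00000003849, chromosome 8, 107388225 to 107403206), a quinone reductase, had 1807 and 1262 normalized counts in group A and 1009 and 1001 in group B. A1 stood above the rest, and the log2 fold change by the authors' deposited table was -0.61 (adjusted p 0.470; limma adjusted p 0.193). It was -0.33 in limma without A1. Hmox1, the haem oxygenase, had 13308 and 9280 in group A and 11332 and 12843 in group B, with a log2 fold change of 0.10 by the authors' deposited table, and the groups overlapped. Srxn1, which repairs over-oxidized peroxiredoxins, also overlapped (2934, 2708, 2377 and 2811), with -0.12 in the authors' deposited table. Txnrd1, thioredoxin reductase, had 35926 and 34268 in group A and 32601 and 30570 in group B. Its log2 fold change by the authors' deposited table was -0.15, with a limma interval from -0.36 to 0.05. Nqo1, Txnrd1, Gclm and Slc7a11, as well as Keap1, were thus lower in both B libraries. Nfe2l2, Txn1, Fth1, Cat and Blvrb were higher in both, and none of these genes passed the threshold. Of all genes at a mean of 10 or more, 26% were lower in both B libraries and 26.4% higher. Sod2, the mitochondrial dismutase, had very similar libraries within each group, 20426 and 20093 against 14626 and 14686, and a log2 fold change of -0.47 by the authors' deposited table (adjusted p 0.171). Limma gave Sod2 a standard error of 0.08 and an adjusted p of 0.0570. Without B2 its limma log2 fold change was -0.47, and the spread of Sod2 itself within a group then came from group A alone.

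Per kilobase of transcript, the mean levels of the members ran from 10.1 normalized counts per kb for Gsta1 upward. Sod1 had the highest mean level, 87005 normalized counts per kb, followed by Ftl1 with 85556 and Prdx1 with 80472. Over the 4 libraries these levels ran from 77193 to 92962 per kb for Sod1, from 72768 to 107614 for Ftl1 and from 75272 to 85820 for Prdx1, so this order does not hold beyond the spread. Gpx1 (68897 per kb), Fth1 (54757) and Txn1 (36229) came next. Gsta4, with 21090 per kb, was the first transferase, ahead of Gstp1 with 9790. Nfe2l2 had 3865 per kb and Keap1 620. Among the peroxidases the per-kb order was Gpx1, Gpx4 (15863), Gpx3 (6903) and Gpx2 (224), and in B1 the Gpx3 level reached 14460 per kb, above that of Gpx4 in the same library (13843). The cystine importer gene Slc7a11 was among the lower members with 265 per kb. The medium contained beta-mercaptoethanol, and its part in this level was not tested.

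Differences within a group limited several members. In the 20 feeder markers A1 was above A2 and B2 above B1 in 20 of 20, with median log2 ratios of 1.09 for A1 over A2 and 2.10 for B2 over B1. The same order held for 12 of the 39 members with a mean of at least 10, against 21.3% of all such genes. Cbr3, a carbonyl reductase, was among them, with 622 and 375 normalized counts in group A and 280 and 434 in group B. Mgst1, Hmox1, Srxn1, Ftl1, Sod2 and Blvrb shared this order, as did the transferases Gstm1, Gstm2 and Gstt2. The part of the feeder cells in these members was not tested. Of the 4 members past the threshold, Gsto1 and Gsta4 also had this order, and Gstm5 and Gpx3 did not. For Gsto1 the log2 ratios were 0.33 for A1 over A2 and 0.14 for B2 over B1, and for Gsta4 they were 0.14 and 0.07.

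Other genes of the pathway were taken from 5 lists with 97 names. Of 96 found and 93 with a count, 3 were higher and 6 lower by the authors' deposited table at the same threshold, 84 did not pass, against 1.54% higher and 1.92% lower of all genes with a count, and the median log2 fold change was -0.01. Limma called 3 of them, Oplah upward and Cth and Gstm7 downward, against 2.01% of all genes it tested. The counts of each list below stand against 3.46% of all genes with a count in either direction and 5.12% of those at a mean of 10 or more, and with so few genes 1 call in a list is near that share. Among 16 regulators 1 passed. Bach1, a repressor that competes with NRF2 at its element, had 3826 and 3650 normalized counts in group A and 6914 and 5551 in group B, and it rose by 0.74 on the log2 scale in the authors' deposited table (adjusted p 0.00802; limma adjusted p 0.0644). The small MAF partners Mafg and Mafk had log2 fold changes of 0.20 and 0.56 by the authors' deposited table, and Btrc and Fbxw11, which encode beta-TrCP proteins, -0.02 and 0.12, none past the threshold.

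Of 21 other glutathione enzymes 1 was higher and 2 lower. Oplah, 5-oxoprolinase, which returns glutamate from the breakdown of glutathione, had 1444 and 1383 in group A and 3436 and 2677 in group B. It rose by 1.11 on the log2 scale in the authors' deposited table (adjusted p 0.000474), and limma gave 1.10 (SE 0.16, adjusted p 0.0416). Cth, cystathionine gamma-lyase, which makes cysteine from cystathionine, had 14529 and 13307 in group A and 8884 and 7938 in group B. It fell by 0.73 on the log2 scale in the authors' deposited table (adjusted p 0.00459), and limma gave -0.73 (SE 0.11, adjusted p 0.0416). Gpx7, a peroxidase of the endoplasmic reticulum, had 1531 and 1533 in group A and 666 and 884 in group B, and it fell by 0.98 on the log2 scale in the authors' deposited table (adjusted p 0.000140; limma adjusted p 0.0622).

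Of 14 genes found from the list of other transferases, 1 was higher and 2 lower. They were Gstm3 and Gstm7 as above and Ptgds, the lipocalin-type prostaglandin D synthase, which is not a glutathione transferase. Ptgds fell by 1.30 on the log2 scale in the authors' deposited table (adjusted p 0.00815, limma adjusted p 0.110). In the thioredoxin and peroxiredoxin list 1 of 15 with a count passed. Txnip, an inhibitor of thioredoxin, had 18780 and 22983 in group A and 11326 and 13169 in group B, and it fell by 0.77 on the log2 scale in the authors' deposited table (adjusted p 0.00610; limma adjusted p 0.0566). Among 27 further NRF2 target genes with a count 1 passed. Akr1b8, an aldo-keto reductase, had 2998 and 2649 in group A and 1312 and 1848 in group B, and it fell by 0.84 on the log2 scale in the authors' deposited table (adjusted p 0.00258; limma adjusted p 0.0909).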

How the data were processed

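The data are one table deposited by the authors, with 46603 gene IDs after 5 repeated rows were used once. The deposited signal per gene is a mean normalized count of 2 libraries, that is, read counts divided by size factors. Further columns are, per the file headers, the ratio of B to A, the log2 of that ratio, and raw and adjusted p-values of the authors. STAR, DESeq and mm10 are named without versions in the submitters' processing notes. The read counter, the strand setting and the annotation are not given in the sources used.

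The p-values of the authors were taken unchanged, with a threshold of 0.05 on the adjusted p. Counts of each library were recovered as the pair of whole numbers nearest to each group mean (tolerance 1e-06; 100% of 28616 genes in group A and of 28353 in group B). A second pair also fell within this tolerance for 1700 genes in group A and 11 in group B. The nearest pair was used, and the next was at least 20.4 times as far off in group A and 212 times in group B. The recovered counts were tested with limma 3.58.1 in R 4.3.3 (mean-variance trend, two-sided, Benjamini-Hochberg adjustment) on log2(normalized count + 1). This covered 20465 genes with a mean of at least 10, as an alternative to the authors' test. The added 1 draws the ratio of low values toward 1, and a mean of logs can differ from the authors' log of means in either direction. The recovery of counts and the limma fit were tested on simulated data, and the authors' test was not. Levels per kilobase divide the normalized count by the median length of a gene's protein-coding transcripts in GENCODE M21 (basic set), which also gave positions (mm10; 46005 IDs matched).

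The members and lists were chosen with earlier results of these data known. Per-library values are given for Nfe2l2, Keap1, every member past the threshold, the 3 most abundant members of each role and the member with the largest positive and negative fold change of each role among those with a mean of at least 50. From the other lists up to 4 genes past the threshold are named, or the 2 most abundant. Other genes are named after their values were seen. The alternatives were another threshold, limma, another pseudocount, no filter, scaling by library total and leaving out each library.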

Additional observations from a re-analysis of the deposited data

How the results depend on the processing

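With an adjusted p of 0.1 in the authors' test 7 members passed, and with 0.01 2 did. Limma left 3 of the 4 members past the threshold with all libraries, with a pseudocount of 10, without the filter on low values and when scaled by library total; the member lost each time was Gsto1. With 1 library left out limma called 0 to 7 members and 0 to 11 of the other pathway genes, for which it called 3 under each of the 4 settings with all libraries, against 9 by the authors' test. The counts of 0 were those without A1 and without A2, where limma called none of all the genes it tested either. The shares of all genes called without B1 and without B2 are given above. The median of the members ranged from -0.14 to 0.055 with 1 library left out. The direction of 6 members turned, from -0.20 to 0.18 for Gss, -0.41 to 0.33 for Mgst1, -0.14 to 0.38 for Hmox1, -0.35 to 0.33 for Gpx2, -0.086 to 0.24 for Prdx6 and -0.056 to 0.45 for Ftl1. None of these 6 passed in the authors' test. The cause was not tested. No paired analysis was possible because the recovered libraries carry no replicate numbers. A fit without 1 library assumes that the lone library varies like the other group. Depth limits Gsta1, Gsta2 and Mgst2, which have few reads.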
